A study of Mus musculus with 10 samples.

Results

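The 10 genes described here, *Pecam1*, *Cdh5*, *Tek*, *Kdr*, *Flt1*, *Vwf*, *Egfl7*, *Emcn*, *Eng* and *Tie1*, are genes by which endothelial cells are commonly recognized. They were chosen by name, are 10 of the 54532 genes in the deposited table, and all 10 passed the filter on low values, which asked for an average of 0.5 FPKM or more. FPKM (fragments scaled for gene length and for the size of each library) was deposited for 10 hearts of *Rit1* M90I/+ mice, 5 given vehicle and 5 given trametinib, an inhibitor of the kinases MEK1 and MEK2 (MEKi), given daily at 1 mg/kg from an age of 4 weeks and for 20 weeks. Every mouse, controls included, carried the M90I allele in the germline through a cytomegalovirus-Cre deleter cross, and no wild-type heart was analysed here. The RNA came from cardiac tissue and was selected by its poly(A) tail, and which part of the heart was taken is not given in the sources used here. Whether MEK inhibition altered the transcripts of *Rit1* M90I/+ hearts is the question the design addresses, and none of these 10 genes differed between the groups at an adjusted p under 0.05.

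Endothelial cells line the blood vessels and the chambers of the heart, and in heart tissue they are numerous because capillaries run beside every myocyte. Endothelial cells are recognized by a small set of surface and secreted proteins. KDR (VEGFR2) and FLT1 (VEGFR1) are receptors for vascular endothelial growth factors, TEK (TIE2) is the receptor for angiopoietins and TIE1 is its relative without a firmly bound ligand of its own, and endoglin (ENG) is a co-receptor for bone morphogenetic proteins. CDH5 (VE-cadherin) and PECAM1 hold neighboring endothelial cells together, EMCN is a sialomucin of capillaries, veins and endocardium, and VWF and EGFL7 are secreted, VWF as the adhesive protein of Weibel-Palade bodies.

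The series as a whole gave these conditions for reading the 10 genes. The fragments on genes numbered 13647167 to 18474002 per heart, and between 610 and 8002 fragments lay behind each value of the 10 genes. Cardiomyocyte markers (*Myh6*, *Tnnt2*, *Actc1* and 6 others) summed to between 15010 and 20846 FPKM in each heart. *Xist*, transcribed from the inactive X chromosome, was at most 0.00662 FPKM in vehicle hearts and between 5.16 and 6.85 FPKM in MEKi-treated hearts, while the Y-linked *Ddx3y* was between 10.3 and 12.2 FPKM in vehicle hearts and listed at 0 in every MEKi-treated heart. Treatment and sex-linked transcripts divided the hearts alike and cannot be told apart in any comparison below. In whole tissue, moreover, fewer endothelial cells and less RNA per endothelial cell cannot be told apart.

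The 10 genes varied together from heart to heart, and the start regions of the 4 that followed the other members most closely (*Emcn*, *Tek*, *Tie1* and *Eng*) are printed for that reason. Each is the 250 bases before the RefSeq transcription start (GRCm38.p6), 5′ to 3′ along the gene. Capitals mark GGAAG on either strand (CTTCC where it lies on the other strand), a string within many binding sites of the ETS family, to which the endothelial regulators ERG and FLI1 belong.
*Emcn* (chr3:137340828-137341077, plus strand): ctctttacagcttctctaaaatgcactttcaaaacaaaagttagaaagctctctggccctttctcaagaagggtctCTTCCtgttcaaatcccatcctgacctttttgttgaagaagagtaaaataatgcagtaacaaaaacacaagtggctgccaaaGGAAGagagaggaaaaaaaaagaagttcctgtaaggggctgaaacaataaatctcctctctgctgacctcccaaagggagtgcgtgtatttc
*Tek* (chr4:94739039-94739288, plus strand): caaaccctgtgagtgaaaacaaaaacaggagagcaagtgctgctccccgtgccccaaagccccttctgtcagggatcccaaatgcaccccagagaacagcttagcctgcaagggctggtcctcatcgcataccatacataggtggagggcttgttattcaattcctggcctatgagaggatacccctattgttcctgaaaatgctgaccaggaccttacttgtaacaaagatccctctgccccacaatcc
*Tie1* (chr4:118489850-118490099, minus strand): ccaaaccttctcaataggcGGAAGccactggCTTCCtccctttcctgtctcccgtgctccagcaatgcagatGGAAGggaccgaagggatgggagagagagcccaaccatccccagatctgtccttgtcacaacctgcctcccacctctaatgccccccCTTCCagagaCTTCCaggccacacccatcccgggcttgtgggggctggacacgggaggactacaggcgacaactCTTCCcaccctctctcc
*Eng* (chr2:32646345-32646594, plus strand): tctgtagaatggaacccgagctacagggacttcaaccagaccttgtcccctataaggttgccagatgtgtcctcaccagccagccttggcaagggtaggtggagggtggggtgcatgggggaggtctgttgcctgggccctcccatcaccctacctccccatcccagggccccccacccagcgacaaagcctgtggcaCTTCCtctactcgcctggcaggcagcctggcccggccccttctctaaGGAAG
The motif occurred 6 times before *Tie1*, 2 times before *Eng*, 2 times before *Emcn* and 0 times before *Tek*. Of 32851 mouse promoter windows of this length, 64.1% held it at least once, 29.4% at least 2 times and 3.39% at least 4 times, with a median of 1. A match is a string of letters and not a measured binding site, and its absence before *Tek* says nothing of ETS factors there. Of the other members, windows were found for *Kdr* (1 match), *Flt1* (3 matches) and *Egfl7* (3 windows with 4, 2 and 0 matches).

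Per unit of length, *Eng* was the most abundant of the 10 transcripts and *Flt1* the least, with means 8.45-fold apart in vehicle hearts and 6.94-fold apart in MEKi-treated hearts. In vehicle hearts the mean FPKM fell in the order *Eng* (81.6), *Cdh5* (38.0), *Pecam1* (33.02), *Egfl7* (30.6), *Tie1* (22.6), *Kdr* (15.5), *Tek* (15.1), *Emcn* (12.6), *Vwf* (11.4) and *Flt1* (9.66). Only *Eng* was separated from the next gene, *Cdh5*, in level by hearts that did not overlap. Within single hearts, *Egfl7* exceeded *Tie1* and *Tie1* exceeded *Kdr* in 5 of 5 vehicle and 5 of 5 MEKi-treated hearts. *Kdr* and *Tek* could not be ordered, since *Kdr* was the higher of the pair in 3 of 5 vehicle hearts and in 0 of 5 MEKi-treated hearts. *Emcn* and *Vwf* could not be ordered either, with *Emcn* higher in 4 vehicle and 2 MEKi-treated hearts. The plot of FPKM by gene shows these levels for each heart.

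**Figure D1:**
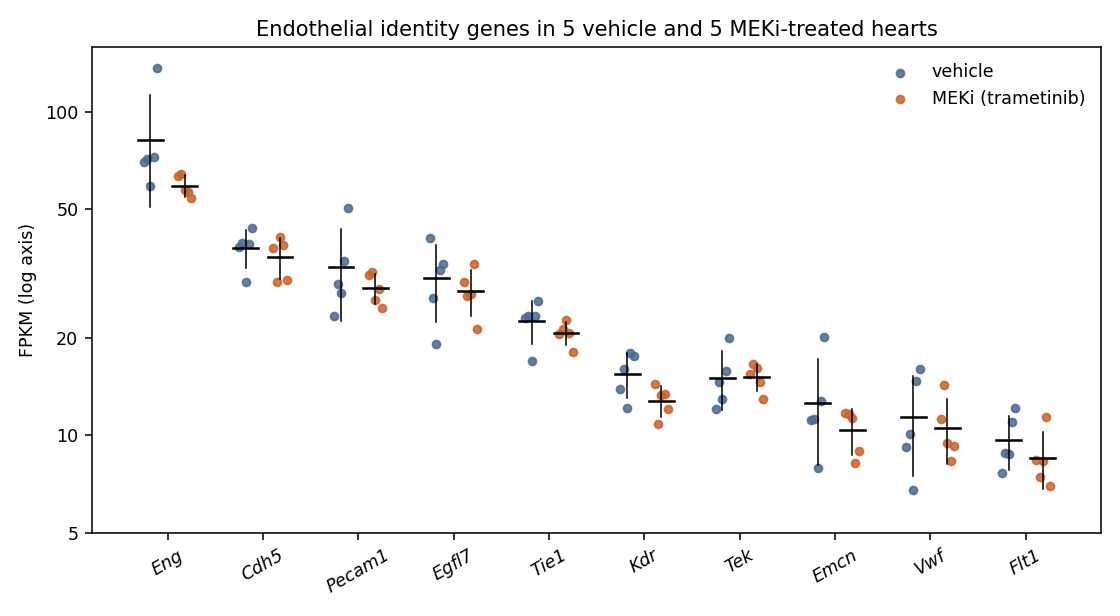
FPKM (log axis) of the 10 endothelial identity genes in the 5 vehicle hearts (blue points) and the 5 MEKi-treated hearts (orange points), with horizontal lines for group means and vertical lines for ± 1 SD. The groups overlapped for every gene, and 1 vehicle heart stood above the rest at 136 FPKM for *Eng*.

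Between MEKi-treated and vehicle hearts, none of the 10 genes passed the threshold of 0.05 after adjustment over all 12602 genes tested (limma on log2(FPKM + 0.1), Benjamini-Hochberg), against 0.0794% of all genes tested, and 0.0555% of all genes were called lower with MEKi. The 10 genes are autosomal, and without X, Y and mitochondrial genes 0 of 12178 genes passed. In the main fit, 0 of the 10 genes were also at an unadjusted p under 0.05, against 7.62% of all genes tested. This count depended on the setting, since 11 of 27 alternatives had 1 to 3 members under it, *Kdr* in 10, *Eng* in 7 and *Tie1* in 1, and none after adjustment. Voom on recovered fragments and array weights each had *Eng* and *Kdr* there, and the fit without vehicle heart 3 had *Eng*, *Kdr* and *Tie1*. No member had groups that did not overlap, which was the case for 1.64% of all genes tested. The log2 fold change was negative for 9 members and positive for 1, *Tek*, with a median of −0.14. Over all genes tested the median was 0.011, and 47.9% of genes were negative. The 95% intervals of all 10 genes lay between −0.81 and 0.43, so that none reached −1 or 1 on the log2 scale. Fold changes are given on the log2(FPKM + 0.1) scale.

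*Eng* (chromosome 2, 32646595 to 32682669, plus strand), the bone morphogenetic protein co-receptor, had the largest difference in group means of the 10 genes. It was at 69.9, 71.3, 58.7, 72.5 and 136 FPKM in vehicle hearts 1 to 5. In MEKi hearts 1 to 5 it was at 63.4, 64.3, 57.2, 56.6 and 53.9 FPKM. Vehicle heart 5 was far above the rest, and 3 of 5 MEKi-treated hearts were below every vehicle heart while the other two lay between vehicle hearts 3 and 1. The group values were 81.6 ± 30.8 FPKM with vehicle and 59.1 ± 4.54 FPKM with MEKi (mean ± SD, n = 5 hearts each). The 95% interval just included 0 (log2 fold change of −0.40 with an SE of 0.19 and a 95% interval of −0.81 to 0.0065, adjusted p = 0.652 by limma). A two-sided exact permutation test of *Eng* alone gave p = 0.0238, unadjusted for the 10 genes examined in this way, where 0.00794 is the smallest p that 5 against 5 hearts allow. Without vehicle heart 3 the log2 fold change was −0.51 (95% interval −0.91 to −0.100, limma adjusted p = 0.407). Without vehicle heart 5 the vehicle mean was 68.1 ± 6.34 FPKM (SD, n = 4) and the log2 fold change −0.20 (SE 0.095, limma adjusted p = 0.728). *Fpgs* overlaps *Eng* on the opposite strand and had between 89 and 161 fragments per heart, and strand-specific counting is not stated in the sources used here.

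The receptors for vascular endothelial growth factors were also lower in mean with MEKi, and neither passed the threshold. *Kdr* (chromosome 5, 75932827 to 75978458, minus strand), which transmits most of the growth factor signal, was at 13.9, 15.99, 12.2, 17.95 and 17.6 FPKM in vehicle hearts 1 to 5. With MEKi, hearts 1 to 5 were at 14.4, 10.9, 13.3, 13.4 and 12.02 FPKM. Vehicle hearts 2, 4 and 5 exceeded every MEKi-treated heart, and vehicle hearts 1 and 3 lay within the MEKi range. The means were 15.5 ± 2.47 FPKM with vehicle and 12.8 ± 1.37 FPKM with MEKi (mean ± SD, n = 5 hearts each). The 95% interval just included 0 (log2 fold change of −0.27 with an SE of 0.12 and a 95% interval of −0.54 to 0.0025, adjusted p = 0.652 by limma), and a two-sided exact permutation test of *Kdr* alone gave p = 0.0714, unadjusted. The log2 fold change of *Kdr* was −0.35 without vehicle heart 3 (95% interval −0.60 to −0.11, limma adjusted p = 0.355) and −0.30 with array weights (−0.54 to −0.054, limma adjusted p = 0.452). Vehicle hearts 4 and 5 and MEKi heart 2 carried the most atrial transcripts, and leaving them out was a choice made after seeing the data. The log2 fold change of *Kdr* was then −0.072 (limma adjusted p = 0.967). These hearts also held the highest vehicle values and the lowest MEKi value of *Kdr*, so leaving them out brings the group means together by itself. The part of atrial tissue in this was not tested.

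*Flt1* (chromosome 5, 147561604 to 147726011, minus strand) encodes a receptor that binds the same ligands and also a secreted decoy form, which gene-level FPKM does not separate. It was at 7.64, 8.83, 8.76, 10.99 and 12.1 FPKM in vehicle hearts 1 to 5. The MEKi-treated hearts, 1 to 5, gave 8.399, 7.46, 8.35, 11.4 and 6.99 FPKM. MEKi heart 4 lay among the highest vehicle hearts, so the groups overlapped (log2 fold change of −0.18 with an SE of 0.16, adjusted p = 0.8196 by limma). With 1 heart left out it ran from −0.29 (without MEKi heart 4) to −0.095 (without vehicle heart 5). The ratio of *Kdr* to *Flt1* within a heart, which does not move when both change alike, was 1.62 ± 0.199 in vehicle and 1.53 ± 0.227 in MEKi-treated hearts (SD, n = 5 each; two-sided exact permutation test, p = 0.516, also after adjustment over 2 ratios).

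Of the receptors of the angiopoietin system, *Tek* had the smallest difference of the 10 genes. *Tek* (chromosome 4, 94739289 to 94874976, plus strand), the angiopoietin receptor, was at 12.1, 14.6, 12.9, 15.8 and 19.9 FPKM in vehicle hearts 1 to 5. MEKi hearts 1 to 5 were at 15.5, 16.7, 16.2, 14.6 and 12.98 FPKM. The MEKi range lay inside the vehicle range, and the means were nearly equal (log2 fold change of 0.027 with an SE of 0.13 and a 95% interval of −0.26 to 0.32, adjusted p = 0.973 by limma). *Tie1* (chromosome 4, 118471191 to 118490061, minus strand), its co-receptor, was at 23.1, 23.4, 16.9, 23.4 and 26.1 FPKM in vehicle hearts 1 to 5. In MEKi hearts 1 to 5 it was at 20.6, 21.2, 22.7, 20.8 and 18.03 FPKM. For *Tie1*, 4 of 5 vehicle hearts were above every MEKi-treated heart, and vehicle heart 3 was below all of them (log2 fold change of −0.12 with an SE of 0.12 and a 95% interval of −0.37 to 0.14, adjusted p = 0.847 by limma). Without vehicle heart 3 the log2 fold change of *Tie1* was −0.22 (95% interval −0.41 to −0.025, limma adjusted p = 0.448). The ratio of *Tie1* to *Tek* was 1.52 ± 0.250 in vehicle hearts and 1.36 ± 0.0609 in MEKi-treated hearts (SD, n = 5 each; two-sided exact permutation test, p = 0.238, or 0.476 adjusted over the 2 ratios).

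Among the adhesion molecules, *Cdh5* (chromosome 8, 104101625 to 104144511, plus strand), the cadherin of endothelial junctions, was at 38.04, 39.3, 29.8, 38.9 and 43.7 FPKM in vehicle hearts 1 to 5. With MEKi, hearts 1 to 5 were at 37.8, 29.9, 40.98, 38.6 and 30.1 FPKM. Vehicle heart 3 and MEKi hearts 2 and 5 shared the lowest values, and the other 7 hearts were between 37.8 and 43.7 FPKM (log2 fold change of −0.099 with an SE of 0.13 and a 95% interval of −0.38 to 0.18, adjusted p = 0.895 by limma). With 1 heart left out the log2 fold change of *Cdh5* ran from −0.18 (without vehicle heart 3) to −0.040 (without MEKi heart 2). *Pecam1* (chromosome 11, 106654217 to 106750628, minus strand), an adhesion molecule of endothelial cells that platelets and leukocytes also carry, was at 23.4, 29.4, 27.5, 34.6 and 50.2 FPKM in vehicle hearts 1 to 5. The MEKi-treated hearts, 1 to 5, gave 31.2, 31.9, 26.2, 28.3 and 24.7 FPKM. The lowest and the highest value both came from vehicle hearts, 1 and 5, and the MEKi range lay between them (log2 fold change of −0.17 with an SE of 0.18 and a 95% interval of −0.56 to 0.22, adjusted p = 0.8601 by limma). *Emcn* (chromosome 3, 137341067 to 137432185, plus strand), the endothelial sialomucin, was at 11.2, 11.2, 7.93, 12.7 and 20.1 FPKM in vehicle hearts 1 to 5. MEKi hearts 1 to 5 were at 11.7, 11.7, 11.3, 8.22 and 8.95 FPKM. Vehicle heart 5 stood above all other hearts for *Emcn*, and the rest overlapped across groups (log2 fold change of −0.23 with an SE of 0.21 and a 95% interval of −0.69 to 0.23, adjusted p = 0.824 by limma). Without vehicle heart 5 the log2 fold changes of *Pecam1* and *Emcn* were −0.0053 and −0.047 (limma adjusted p = 0.999 and 0.987).

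The secreted members overlapped between groups as well. *Vwf* (chromosome 6, 125546774 to 125686679, plus strand), whose product tethers platelets to injured vessels and which megakaryocytes also transcribe, was at 9.19, 10.1, 6.78, 14.7 and 16.1 FPKM in vehicle hearts 1 to 5. In MEKi hearts 1 to 5 it was at 11.2, 14.3, 9.48, 8.33 and 9.27 FPKM. Vehicle hearts 4 and 5 and MEKi heart 2 were high and vehicle heart 3 was low (log2 fold change of −0.066 with an SE of 0.23 and a 95% interval of −0.56 to 0.43, adjusted p = 0.963 by limma). The sign of *Vwf* turned when vehicle heart 5 was left out, to 0.076 (limma adjusted p = 0.982), so no direction can be given for it. *Egfl7* (chromosome 2, 26580014 to 26593120, plus strand), which encodes a matrix protein that guides vessel formation, was at 40.8, 26.6, 19.2, 32.4 and 33.9 FPKM in vehicle hearts 1 to 5. With MEKi, hearts 1 to 5 were at 29.7, 26.9, 27.3, 33.8 and 21.4 FPKM. Vehicle heart 1 was the highest and vehicle heart 3 the lowest of the 10 hearts for *Egfl7* (log2 fold change of −0.11 with an SE of 0.19 and a 95% interval of −0.52 to 0.30, adjusted p = 0.931 by limma). *Agpat2* overlaps *Egfl7* on the opposite strand, with 414 to 885 fragments per heart.

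The gene body of *Egfl7* also holds *Mir126a*, the best known endothelial microRNA, whose mature form from the 3′ arm is shown with its seed, bases 2 to 8, in capitals (RefSeq, GRCm38.p6, chr2:26591402-26591423, plus strand).
mmu-miR-126a-3p: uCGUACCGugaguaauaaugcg
*Mir126a* was listed at 0 in all 10 hearts, and poly(A)-selected libraries of this kind do not measure mature microRNAs, so *Egfl7* stands here for its messenger RNA only.

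**Figure D2:**
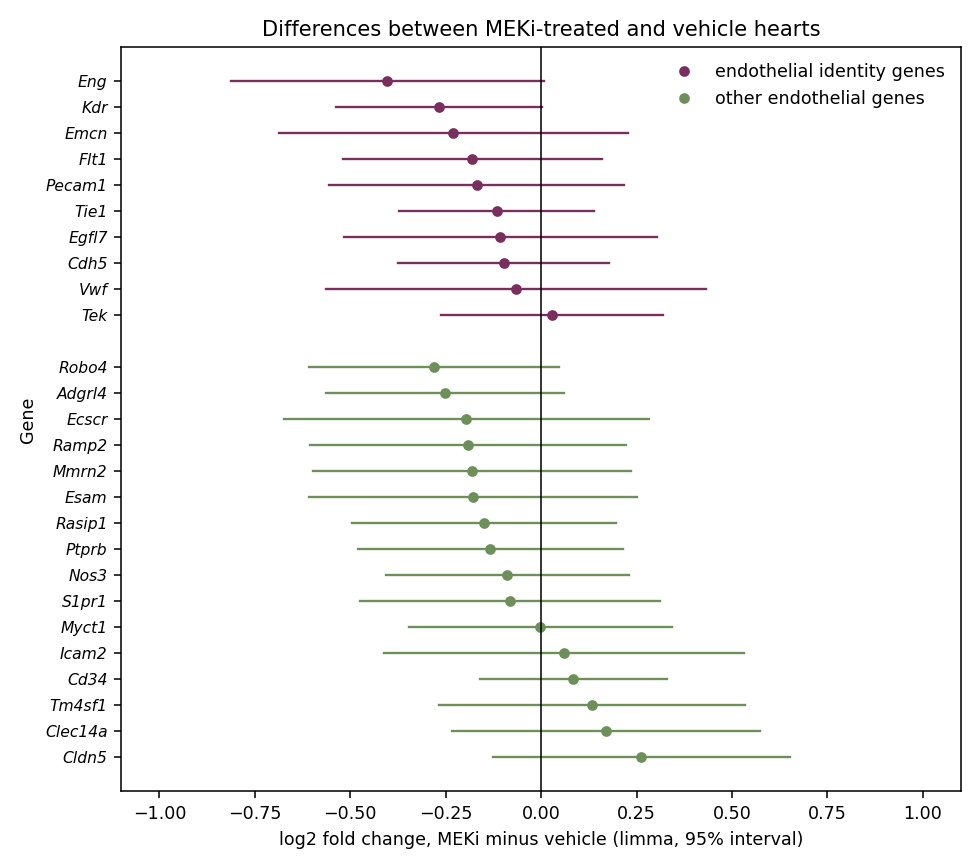
Log2 fold change (MEKi minus vehicle) with its 95% interval from limma for the 10 endothelial identity genes (purple) and 16 other endothelial genes (green), each sorted from lowest to highest. All 26 intervals include 0, and those of *Eng* and *Kdr* end just above it, at 0.0065 and 0.0025.

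Variation among hearts of one group was shared by the members. After subtraction of group means, the correlation of log2(FPKM + 0.1) over the 10 hearts was positive for 45 of 45 pairs of members, with a median r of 0.60 and a range of 0.20 (*Pecam1* with *Egfl7*) to 0.94 (*Pecam1* with *Tek*). These correlations are a description. The hearts share their library, depth scaling and tissue sampling across all genes, and without vehicle heart 5 the median r was 0.50 and 44 of 45 pairs were positive (9 hearts). *Emcn*, *Tek*, *Tie1* and *Eng* followed the other members most closely (mean r of 0.69, 0.68, 0.67 and 0.67), and *Egfl7* and *Flt1* least closely (0.45 and 0.49). Outside the gene lists used here, the 5 genes with the highest mean r to the members, among 10552 genes of at least 1 FPKM, were *Klhl4* (0.78), *Jag1* (0.78), which encodes a Notch ligand, *Pxn* (0.77), which encodes the focal adhesion protein paxillin, *Arl6ip1* (0.76) and *Tspan6* (0.76). None of these 5 differed between groups beyond the spread (limma adjusted p between 0.765 and 0.963).

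**Figure D3:**
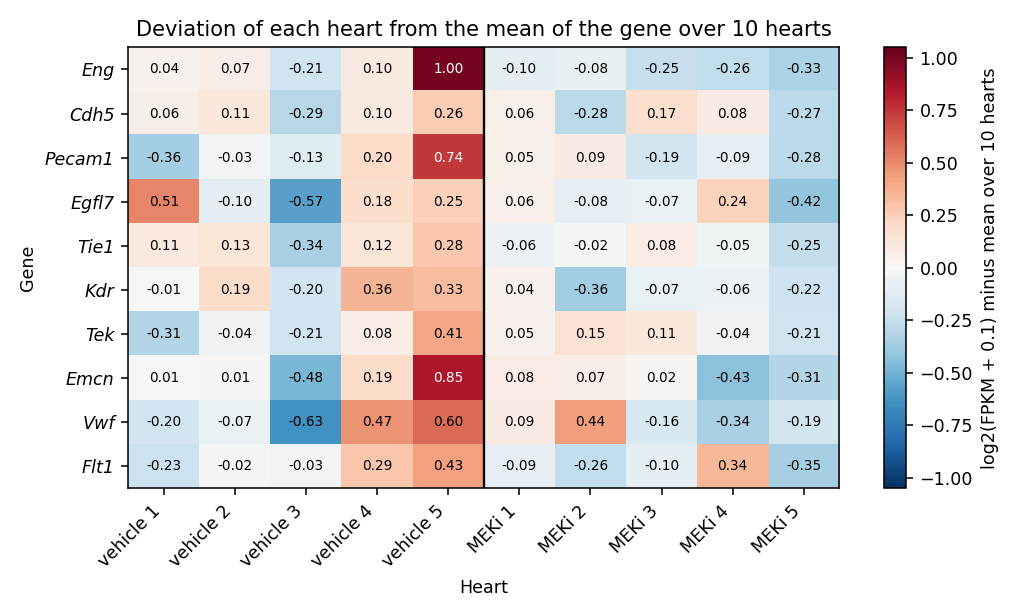
Deviation of log2(FPKM + 0.1) in each heart (columns, vehicle left and MEKi right of the line) from the mean over 10 hearts for each of the 10 genes (rows). Vehicle heart 5 is above the mean for 10 of 10 genes and by 1.00 for *Eng*, while vehicle heart 3 and MEKi heart 5 are below it for 10 of 10 genes.

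The same hearts stood at the extremes for most of the 10 genes. Vehicle heart 5 had the highest value of 8 of the 10 genes and was above the mean of all 10, with a median deviation of 0.42 on the log2 scale. Vehicle heart 3 and MEKi heart 5 were below the mean for 10 of 10 genes, with median deviations of −0.25 and −0.28, and each was among the 2 lowest hearts for 6 genes. Low and high hearts thus occurred within the vehicle group itself. The summed FPKM of the 10 genes was 200.6 and 375.5 in vehicle hearts 3 and 5 and between 249 and 274 in the other vehicle hearts. In the MEKi group the sum was 198 in heart 5 and between 233 and 244 in the others. The coefficient of variation was larger among vehicle than among MEKi-treated hearts for 8 of 10 genes, ranging from 13.4 to 37.7% and from 7.68 to 22.6%.

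The elevation in vehicle heart 5 was uneven. Relative to the median of the other 9 hearts, *Eng* was 2.14-fold, *Emcn* 1.79-fold, *Pecam1* 1.78-fold and *Vwf* 1.70-fold higher in vehicle heart 5, while *Cdh5*, *Tie1* and *Egfl7* were 1.15-fold, 1.23-fold and 1.24-fold higher. *Eng* made up 36.2% of the summed FPKM of the 10 genes in this heart and between 24.2 and 29.3% in the other 9. Of the 16 other endothelial genes, 9 were highest in vehicle heart 5, led by *Mmrn2* (1.87-fold) and *Ramp2* (1.84-fold), and *Cldn5*, the claudin of endothelial tight junctions, was at 0.756 times the median of the other hearts.

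Markers of other cells stood out in the same heart. Among endocardial genes, 4 of 6 were highest in it, with *Npr3* at 14.9 FPKM against 2.55 to 5.79 FPKM in the other hearts and *Plvap* at 59.0 against 14.1 to 32.99 FPKM. Of 9 tested genes of platelets and red cells, 8 were highest in vehicle heart 5, including the platelet genes *Ppbp* (34.3 FPKM, at most 4.84 FPKM elsewhere) and *Itga2b* (5.93 FPKM, at most 1.40 FPKM elsewhere). The platelet gene *Gp1bb* was listed at 0 in every heart but MEKi heart 3. The summed level of the 10 platelet and red cell genes ranged from 2939 to 26023 FPKM among vehicle hearts and from 2944 to 7428 FPKM among MEKi-treated hearts, and vehicle hearts 4 and 5 held the upper values. All 7 tested macrophage and leukocyte genes were highest in vehicle heart 5 too, with sums of 97.5 to 183 FPKM in vehicle and 98.1 to 119 FPKM in MEKi-treated hearts. The part of these cells in the values of *Eng*, *Pecam1*, *Emcn* and *Vwf* was not tested.

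Low values had companions of their own. Vehicle heart 3 had the largest share of mitochondrial fragments, 35.01%, against 24.0 to 31.1% in the other hearts, and the lowest value of 9 of the 16 other endothelial genes. MEKi heart 5 was lowest for 6 of 8 capillary genes, with a summed level of 592 FPKM against 718 to 898 FPKM in the other hearts, and its mitochondrial share was 27.4%. The part of the mitochondrial share in these values was not tested. The atrial transcripts differed strongly among hearts, with *Myl7* at 615 FPKM in vehicle heart 4, 258 FPKM in vehicle heart 5 and 519.5 FPKM in MEKi heart 2 and at most 27.0 FPKM elsewhere. With these 3 hearts left out, a choice made after seeing the data, 0 of 10 members passed the threshold and their median log2 fold change was 0.026. Vehicle hearts 4 and 5 were above the mean for 10 of 10 members, so leaving them out lowers the vehicle means by itself. The part of atrial tissue in the values of the members was not tested.

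**Figure D4:**
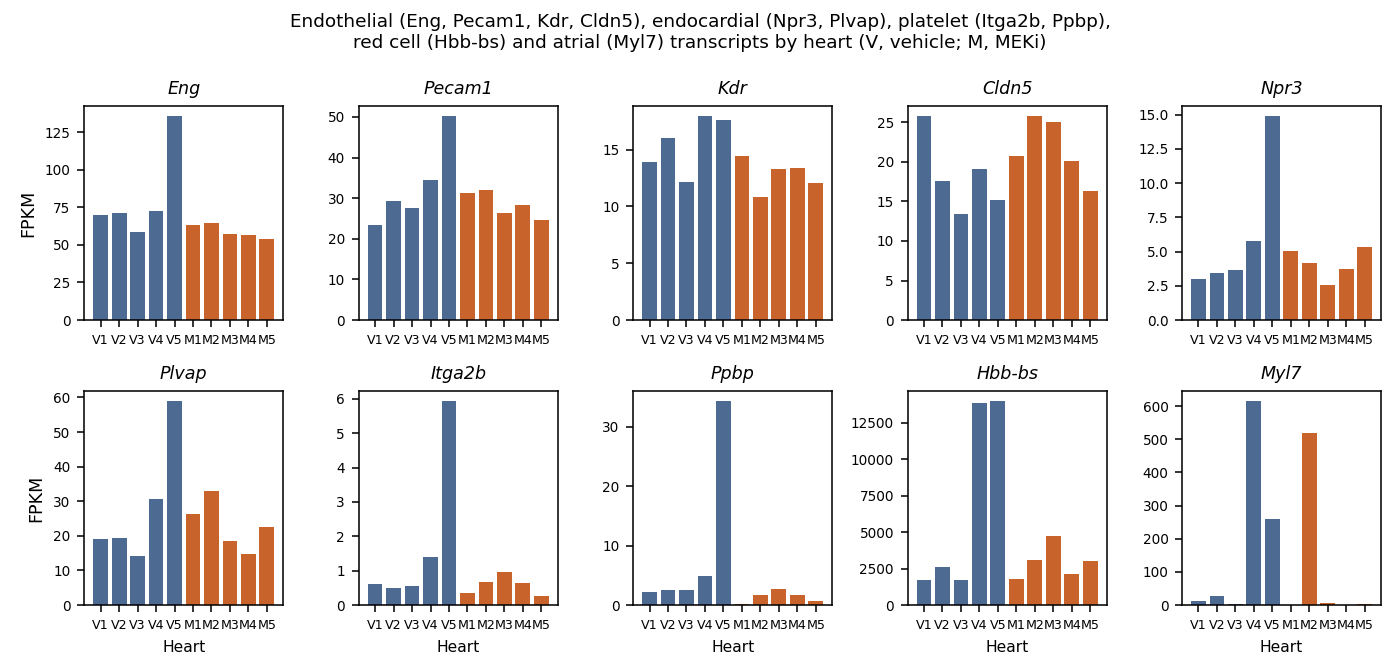
FPKM (linear axes from 0) of endothelial (*Eng*, *Pecam1*, *Kdr*, *Cldn5*), endocardial (*Npr3*, *Plvap*), platelet (*Itga2b*, *Ppbp*), red cell (*Hbb-bs*) and atrial (*Myl7*) transcripts in vehicle hearts 1 to 5 (blue) and MEKi hearts 1 to 5 (orange). Vehicle heart 5 is highest for *Eng*, *Pecam1*, *Npr3*, *Plvap*, *Itga2b* and *Ppbp* and not for *Kdr* or *Cldn5*.

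No call was made among the other endothelial genes either. Some genes, such as *Ptprb* and *Mmrn1*, are in more than 1 list, so the counts by list are not separate. At an unadjusted p under 0.05 there were 0 of the 16 further endothelial genes, 0 of 15 transcription factors, 1 of 8 genes of the growth factor family, 0 of 4 of the angiopoietin system, 1 of 10 partners of endoglin, 2 of 11 junction partners and 1 of 6 partners of VWF, where 7.62% of all genes tested were under it. Among 16 further genes expressed across endothelial cells (*Cldn5*, *Esam*, *Ptprb*, *Robo4* and others), 0 passed the threshold, 11 were lower and 5 higher in mean with MEKi, and the median log2 fold change was −0.11. *Robo4*, a guidance receptor of vessels, was at 6.87 ± 0.887 and 5.705 ± 1.205 FPKM with vehicle and MEKi (log2 fold change of −0.28 with an SE of 0.15, adjusted p = 0.697 by limma). *Cldn5* was at 18.2 ± 4.79 and 21.6 ± 3.89 FPKM (log2 fold change of 0.26 with an SE of 0.18, adjusted p = 0.766 by limma). When the mean level of these 16 genes in each heart was used as a covariate, the SE narrowed from 0.12 to 0.067 for *Tie1*, from 0.19 to 0.12 for *Egfl7* and from 0.13 to 0.091 for *Cdh5*. In that fit 0 of 10 members passed the threshold, with log2 fold changes of −0.34 for *Eng* (95% interval −0.64 to −0.028, limma adjusted p = 0.482) and −0.23 for *Kdr* (−0.45 to −0.0068, limma adjusted p = 0.512). Those of *Tie1* and *Tek* were −0.068 and 0.071 (limma adjusted p = 0.7798 and 0.864). The intervals of *Eng* and *Kdr* did not include 0 there and included it without the covariate, as was also so for both with array weights and without vehicle heart 3.

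Of 15 transcription factors of endothelial cells, 0 passed, 12 were lower and 3 higher in mean, with a median log2 fold change of −0.14. *Erg* was at 8.64 ± 1.71 and 8.03 ± 1.38 FPKM and *Fli1* at 7.42 ± 2.11 and 6.54 ± 1.49 FPKM in vehicle and MEKi-treated hearts (limma adjusted p = 0.909 and 0.891). *Sox18*, the most abundant of the Sox factors measured here, was at 37.3 ± 4.33 and 34.2 ± 5.11 FPKM (log2 fold change of −0.13 with an SE of 0.12, adjusted p = 0.833 by limma).

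Ligands and partners of the members were read from lists of their own. Of 8 genes of the vascular endothelial growth factor family and its co-receptors, 0 passed the threshold and the median log2 fold change was −0.021, 5 lower and 3 higher. *Vegfb*, the ligand of FLT1 that the heart makes in quantity, was at 233 ± 39.9 and 230.0 ± 6.99 FPKM with vehicle and MEKi (log2 fold change of −0.0012 with an SE of 0.12, adjusted p = 0.998 by limma). *Vegfa*, the main ligand of KDR, was at 31.5 ± 7.29 and 33.4 ± 4.98 FPKM (log2 fold change of 0.097 with an SE of 0.15, adjusted p = 0.916 by limma). *Pgf*, placental growth factor, was at 3.702 ± 0.4103 and 2.72 ± 0.862 FPKM (log2 fold change of −0.49 with an SE of 0.23, adjusted p = 0.652 by limma). *Nrp1*, a co-receptor of KDR, was at 9.03 ± 1.64 and 7.404 ± 0.668 FPKM (log2 fold change of −0.27 with an SE of 0.13, adjusted p = 0.656 by limma).

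In the angiopoietin system, 4 of 5 genes were tested and 0 passed. *Angpt1*, which activates TEK, was at 3.82 ± 0.819 and 3.55 ± 0.805 FPKM (log2 fold change of −0.11 with an SE of 0.18, adjusted p = 0.924 by limma). *Angpt2*, which can oppose it, was at 0.815 ± 0.205 and 0.844 ± 0.287 FPKM (log2 fold change of 0.020 with an SE of 0.26, adjusted p = 0.989 by limma). *Ptprb*, the endothelial phosphatase that acts on TEK, was at 9.20 ± 1.99 and 8.33 ± 1.46 FPKM (log2 fold change of −0.13 with an SE of 0.16, adjusted p = 0.885 by limma).

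For endoglin, 10 of 14 partner genes were tested and 0 passed, 8 lower and 2 higher in mean, with a median of −0.11. *Acvrl1* (ALK1), the receptor with which endoglin works in endothelial cells, was at 12.5 ± 2.25 and 10.3 ± 1.603 FPKM (log2 fold change of −0.28 with an SE of 0.15, adjusted p = 0.695 by limma). *Id1*, a transcriptional target of bone morphogenetic proteins, was at 52.4 ± 12.1 and 36.97 ± 6.93 FPKM (log2 fold change of −0.50 with an SE of 0.18, adjusted p = 0.546 by limma). Their ligands *Gdf2* and *Bmp10* were under the filter, with means of at most 0.0722 and 0.478 FPKM in either group.

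Junction partners of VE-cadherin and PECAM1 lay mostly on the other side of 0, with 9 of 11 tested genes higher and 2 lower in mean and a median of 0.11, and 0 passed. The 2 lower genes were *Esam* and *Ptprb* (log2 fold changes of −0.18 and −0.13). Both, and *Cldn5* of the higher genes (0.26), also belong to the other endothelial genes above. Cardiomyocyte markers were likewise higher in mean for 7 of 9 genes and lower for 2, with a median of 0.14 and 0 past the threshold, and their part in the values of the junction partners was not tested. *Ctnna1* (α-catenin), which cardiomyocytes also use at their intercalated discs, was at 94.4 ± 8.79 and 117 ± 10.2 FPKM, and every MEKi-treated heart was above every vehicle heart (log2 fold change of 0.31 with an SE of 0.094, adjusted p = 0.456 by limma). The other gene of this list whose groups did not overlap was *F11r* (JAM-A), at 12.9 ± 2.59 and 16.1 ± 1.34 FPKM (log2 fold change of 0.34 with an SE of 0.14, adjusted p = 0.606 by limma). Over all genes tested, 1.64% were separated in this way. Of 9 genes of Weibel-Palade bodies and partners of VWF, 6 were tested and 0 passed (median −0.020). *Selp*, the adhesion molecule stored with VWF, was under the filter at 0.246 ± 0.187 and 0.229 ± 0.115 FPKM, and *Adamts13*, which encodes the protease that cleaves VWF, was listed at 0 in all hearts.

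**Figure D5:**
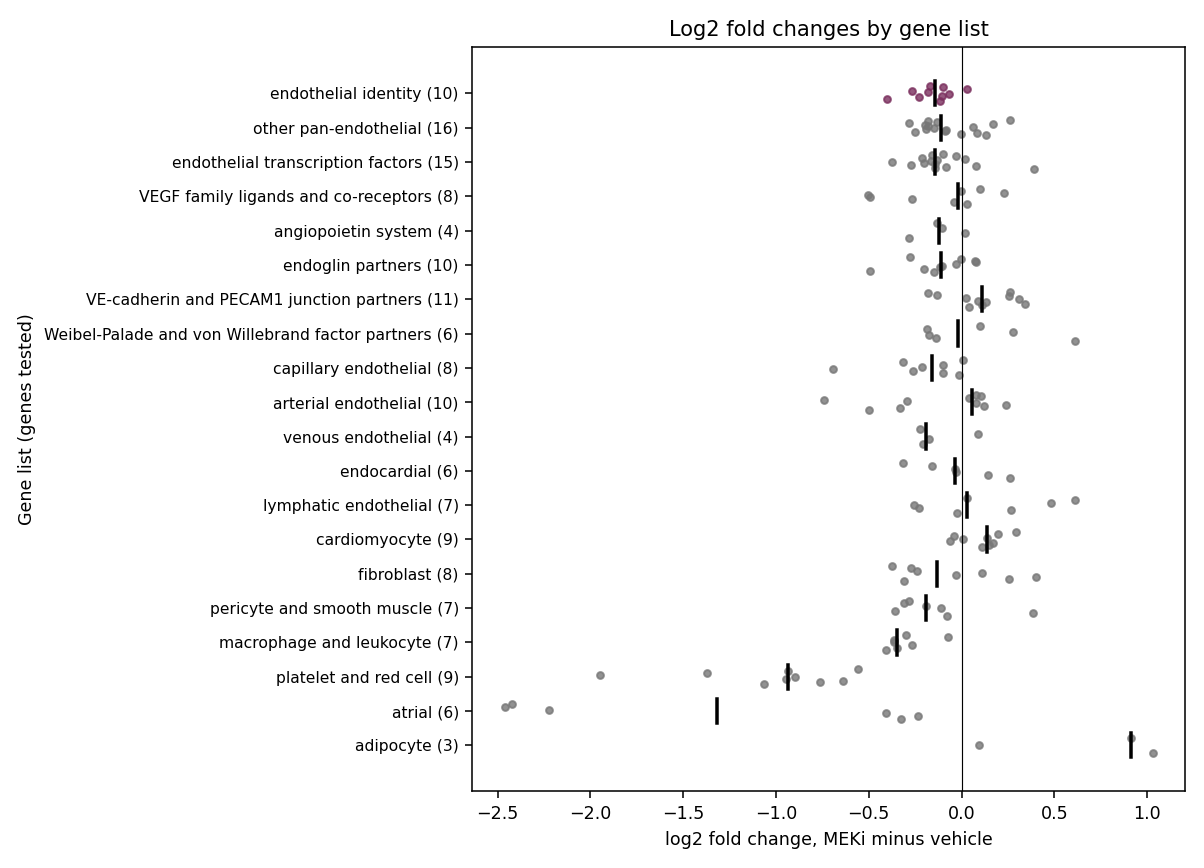
Log2 fold change (MEKi minus vehicle) of each tested gene (points) in the endothelial identity genes (purple, top) and in 19 context lists (grey), with the median of each list as a black bar and the number of genes tested in parentheses. The median of the endothelial identity genes is −0.14, those of platelet and red cell genes and of atrial genes are −0.93 and −1.32, and no gene shown passed the threshold after adjustment.

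By type of vessel, 0 genes passed the threshold in the capillary (8 tested, median −0.16), arterial (10 tested, median 0.058), venous (4 tested, median −0.19), endocardial (6 tested, median −0.033) and lymphatic lists (7 tested, median 0.032). *Gpihbp1*, which carries lipoprotein lipase across capillaries, was at 47.4 ± 11.3 and 37.9 ± 9.09 FPKM with vehicle and MEKi (log2 fold change of −0.32 with an SE of 0.19, adjusted p = 0.741 by limma). *Hey1*, a Notch target of arterial cells, had the smallest adjusted p of all genes in these lists, at 4.66 ± 1.003 and 2.74 ± 0.5398 FPKM (log2 fold change of −0.74 with an SE of 0.16, adjusted p = 0.254 by limma). *Notch4*, an endothelial Notch receptor, was at 5.403 ± 0.7204 and 3.86 ± 0.994 FPKM (log2 fold change of −0.50 with an SE of 0.16, adjusted p = 0.478 by limma). The arterial list as a whole did not go that way, with 4 genes lower and 6 higher in mean with MEKi. At an unadjusted p under 0.05 there were 1 capillary, 2 arterial, 0 venous, 0 endocardial and 2 lymphatic genes, where 7.62% of all genes tested were under it. *Mmrn1* was among these lymphatic genes and was also the partner of VWF counted above. All 4 tested venous genes were highest in vehicle heart 5. *Nr2f2*, the venous regulator, was at 2.01 ± 0.2704 and 1.72 ± 0.322 FPKM (log2 fold change of −0.23 with an SE of 0.15, adjusted p = 0.757 by limma).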

How the data were processed

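RNA-seq of 10 hearts was deposited by the authors as 1 table of FPKM, with 1 column per heart, gene coordinates and gene length. The submitters' processing notes name fastp, STAR 2.5, HTSeq 0.6.1 and mm10. Coordinates matched GENCODE M21 (GRCm38) for 98.3% of 54409 shared identifiers and for all 10 members. In each heart the products of FPKM and length were multiples of 1 step (100% whole within 0.01), from which fragments per gene were recovered. Samples were grouped by their labels. The members and lists were chosen with earlier results of these data known. The paper included littermates of both sexes, and nothing in the labels says that hearts came from separate litters or cages. The p-values set a group difference against the spread between these hearts and take the hearts as independent.

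The 12602 genes averaging 0.5 FPKM or more were compared by limma 3.58.1 (R 4.3.3, eBayes with a trend, two-sided) on log2(FPKM + 0.1). P-values were adjusted by Benjamini-Hochberg and called under 0.05. The fit was tested on simulated data. Levels and exact permutation tests over 252 assignments used Python 3.11.15 and scipy 1.17.1. Genes named are the 10 members, genes of the lists described, *Xist* and *Ddx3y*, and the 5 genes most like the members. The genes overlapping members, and *Mir126a*, were named after their values were seen. Alternatives were pseudocounts of 1 and 0.01, other filters, scalings and weights, voom on fragments, a replicate block, an endothelial covariate and leaving out hearts.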

Additional observations from a re-analysis of the deposited data

Results flagged for a closer look

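*Eng* in vehicle heart 5 was at 136 FPKM, against 58.7 to 72.5 FPKM in the rest of its group, a gap that took up 0.822 of the range of the group. It was the 1 heart found far from its group by Dixon's criterion among 24 groups of 5 hearts, made up of the 10 genes and 2 ratios in each treatment, where chance gives about 1.2.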

How the results depend on the processing

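Under all 27 alternatives, 0 of the 10 members passed the threshold (smallest limma adjusted p = 0.355, *Kdr* without vehicle replicate 3). Their median log2 fold change stayed between −0.23 and −0.053 with 1 heart left out in turn, and between −0.17 and 0.026 under the other 17 alternatives. The highest value came from leaving out vehicle hearts 4 and 5 and MEKi heart 2, chosen after seeing the data. Of 270 values of single members, 250 kept their direction, including all those of *Eng*, *Kdr* and *Tie1*. Part of this was fixed in advance. The other filters, eBayes without a trend, robust eBayes and the replicate block leave each log2 fold change as it is, so no direction could turn there. *Vwf* turned positive on a TPM scale (0.012), with the endothelial covariate (0.016), and without vehicle replicate 4 (0.044), vehicle replicate 5 (0.076) or MEKi replicate 4 (0.011). *Tek* turned negative with scaling outside mitochondrial genes (−0.0027) and without vehicle replicate 1 (−0.046), vehicle replicate 3 (−0.022) or MEKi replicate 2 (−0.0072), and *Egfl7* turned positive without vehicle replicate 1 (0.0080). Without vehicle hearts 4 and 5 and MEKi heart 2, *Pecam1* (0.045), *Cdh5* (0.047), *Flt1* (0.043), *Vwf* (0.15) and *Egfl7* (0.0086) turned positive, and without vehicle hearts 4 and 5, the hearts with the most red cell transcripts, *Pecam1* (0.088), *Flt1* (0.0011), *Vwf* (0.27), *Egfl7* (0.00089) and *Emcn* (0.041) did. With 1 heart left out in turn, *Vwf* ranged from −0.23 to 0.076, *Tek* from −0.046 to 0.13 and *Egfl7* from −0.26 to 0.0080. The cause was not tested.

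The number of genes past the threshold among all genes, 10, was 2 with a mean of at least 5 FPKM, 18 with array weights, 0 without X, Y and mitochondrial genes (924 at an unadjusted p under 0.05), 5 without vehicle hearts 4 and 5, also 5 without these and MEKi heart 2, and from 5 (without vehicle replicate 2) to 13 with 1 heart left out. With the replicate number as a block it was 4, and the block changed no call among the members. Same-numbered hearts did not deviate together (correlations between −0.15 and −0.021). Such correlations cannot show whether the numbers stand for litters, cages or processing pairs.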

Other observations

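Among cells that accompany the endothelium, pericyte and smooth muscle genes (7 tested) had a median log2 fold change of −0.19 and fibroblast genes (8 tested) one of −0.13, and 0 genes passed the threshold in either list (limma, Benjamini-Hochberg), with 0 and 2 genes at an unadjusted p under 0.05. Macrophage and leukocyte genes (7 tested, 0 passed) had a median of −0.35, with *Csf1r*, the receptor for colony-stimulating factor 1, at 10.97 ± 2.55 and 8.37 ± 0.982 FPKM with vehicle and MEKi (log2 fold change of −0.36 with an SE of 0.15, adjusted p = 0.596 by limma). Among lymphatic genes, *Prox1*, the lymphatic regulator that cardiomyocytes also transcribe, was at 3.75 ± 0.5396 and 5.29 ± 0.869 FPKM (log2 fold change of 0.48 with an SE of 0.14, adjusted p = 0.413 by limma), while *Lyve1*, a hyaluronan receptor of lymphatic vessels and macrophages, was at 16.2 ± 6.56 and 12.7 ± 1.46 FPKM (log2 fold change of −0.26 with an SE of 0.25, adjusted p = 0.833 by limma). Adipocyte genes (3 of 5 tested, 0 passed) had a median of 0.91 and summed to between 0.559 and 98.1 FPKM in vehicle and between 5.95 and 96.7 FPKM in MEKi-treated hearts.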
